A study of Rattus norvegicus with 16 samples.

Results

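The cytosolic ribosomal protein genes are described here across tissue, diet and duration of feeding in the brains of aged rats. A gene was a member if its row of the value table carried exactly 1 gene symbol beginning with Rpl or Rps and a digit, or with Rplp, once the kinases and binding proteins with similar names, the pseudogene names and the numbered -like paralogs had been set aside. This gave 68 genes out of 14324 genes with a row of their own, 42 of the large subunit and 26 of the small subunit. The 68 genes had 247 rows of the 27342 on the array, and each gene was represented by its row of highest mean level. The rule used names alone, but it was set with earlier results of these data known.

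The arrays came from male Sprague-Dawley rats labelled 15 months old, fed chow with curcumin or control chow for 6 or 12 weeks. There were 8 groups of 2 Affymetrix arrays, namely hippocampus or cortex, on curcumin or on control chow, after 12 or after 6 weeks. The labels name no other agent and no altered allele, and the tissue of 3 rats was pooled for each RNA sample, so that differences between single animals are averaged away. The labels call the paired arrays biological replicates, while the design text speaks of duplicate arrays of each RNA sample, and p-values may therefore measure only technical spread. The methods give 15 months as the age at the start, so 12-week rats were older when killed than 6-week rats. Duration cannot be told apart from this age or from anything else that differed between the 12-week and 6-week sets.

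Ribosomal proteins assemble with ribosomal RNA into the small subunit, which reads the mRNA, and the large subunit, which joins amino acids. A stalk on the large subunit, built of Rplp0, Rplp1 and Rplp2, calls in the elongation factors, and the proteins around the exit tunnel guide the growing chain. In neurons, where new protein is needed in the cell body and near synapses, ribosomal protein mRNAs are among the most abundant messages. Most of them begin with a run of pyrimidines, the terminal oligopyrimidine tract, through which the mTOR kinase and the protein Larp1 control how well they are translated. The arrays measure mRNA only and say nothing of translation or of ribosome number.

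The start of the gene is where that tract lies, so the start windows of the members that differed most between 12 and 6 weeks are printed here, 30 bases each, with 15 bases before and 15 bases from the start onward. They were read from the RefSeq promoter table of build GRCr8, in which 56 of the 68 members were found by gene ID. The 4 genes that were highest at 12 weeks relative to 6 weeks are first and the 4 lowest follow, and capitals mark the pyrimidine motif CTTTC on the coding strand.
Rpl39, chrX:121195882-121195911, minus strand: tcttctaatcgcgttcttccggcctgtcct
Rpl10, chrX:157205835-157205864, plus strand: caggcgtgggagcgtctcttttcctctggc
Rps21, chr3:187724023-187724052, plus strand: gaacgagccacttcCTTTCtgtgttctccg
Rps12, chr1:23500060-23500089, plus strand: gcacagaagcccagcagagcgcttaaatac
Rps3a, chr2:173827028-173827057, minus strand: gagttgtacttccgcccttttggctctcag
Rps28, chr7:15311319-15311348, minus strand: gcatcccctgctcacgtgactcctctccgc
Rpl35, chr3:43165907-43165936, minus strand: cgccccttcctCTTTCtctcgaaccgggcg
Rpl35a, chr11:81235007-81235036, minus strand: gcgggtcttgccttcctCTTTCcgccatct

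In the mean of the 4 comparisons of 12 with 6 weeks, the log2 differences of the higher genes ran between 0.52 for Rps12 and 0.79 for Rpl39, and those of the lower genes between -0.37 for Rps3a and -0.28 for Rpl35a. CTTTC was found on the coding strand of this window in 24 of the 56 members, 42.9%, and in 3.62% of all 27457 promoters of the table. On the opposite strand it was found in 1 member and in 3.77% of all promoters. Of the members with a window, 19 were higher at 12 weeks in the mean of all groups, and 3 of those held the motif. It was held by 8 of the 16 that were lower and by 13 of the 21 that did not pass. The core of ETS factor sites, CCGGAA, was read on the coding strand of the full 300 bases in 25% of the members and 9.04% of all promoters, and on the opposite strand in 33.9% and 9.14%. Genes on both sides of the duration difference carried it on the opposite strand, 8 of 19 that were higher and 3 of 16 that were lower. Motif matches are a description of these letters, and absence of a match says nothing of the factor or of a pyrimidine tract. Windows without CTTTC can hold other runs of pyrimidines, as that of Rpl10 does. The CTTTC counts are therefore not counts of tracts.

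The 16 arrays had medians between 6.35 and 6.44 on the log2 scale of the value table, where a difference of 1 is a 2-fold change. Paired arrays of a group correlated at 0.990 to 0.996 over all rows. Granule cell markers of the dentate gyrus averaged 6.71 to 7.13 on the hippocampus arrays and 5.51 to 6.03 on the cortex arrays. On control chow Prox1 (1.51) and C1ql2 (1.63) were higher in hippocampus and bore out the tissue labels. The other marker, Tdo2, did not differ between tissues (0.017, limma adjusted p = 0.93). Choroid plexus and ependyma markers were uneven, at 8.53 on 1 hippocampus curcumin array and 9.001 on 1 hippocampus control array of the 6-week set, against 6.08 to 7.02 on the other 14 arrays. In pooled tissue, fewer cells of a type and less RNA per cell cannot be told apart.

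Ribosomal protein genes gave bright rows. The median member lay at 9.96, which is the 97.3rd percentile of all rows, and 33 of the 68 members exceeded 10. Brightness depends on the probes as well as on the mRNA, so the order of the genes is an order of signals and not of mRNA amounts. The brightest rows were those of Rps29 at 11.34, Rps3 at 11.29, Rpl21 at 11.23, Rpl30 at 11.10 and Rpl28 at 10.97. The dimmest belonged to Rps27 at 5.31, below the median of every array, and to Rps4y2 at 6.56, Rps24 at 7.04, Rpl24 at 7.15 and Rpl15 at 7.52. The X-linked gene Rps4x read 10.53 and its Y-named relative Rps4y2 read 6.56, and the rows of these paralogs may share probe sequence with other copies.

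Members differed widely in how far they varied. The median SD over the 16 arrays was 0.142 for the members, 0.151 for the 2354 rows at least as bright as the members' lower quartile of 8.88, and 0.122 for all rows. The narrowest were Rpl21 (SD 0.055, lowest 11.11, median 11.24, highest 11.33), Rpl34 (SD 0.065), Rps7 (SD 0.066), Rpl36a and Rpl22 (SD 0.074 each). Rpl39, a small protein of the exit tunnel, was the widest, with an SD of 0.425, a lowest value of 7.58, a median of 8.23 and a highest value of 8.69. Next came Rpl10 (SD 0.323), whose protein joins the large subunit late in its maturation, Rps12 (SD 0.312), Rps19 (SD 0.288) and Rps18 (SD 0.287). The widest 5 were also the genes with 5 of the 6 largest differences between 12 and 6 weeks, as the heat map of all 68 genes shows.

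**Figure D1:**
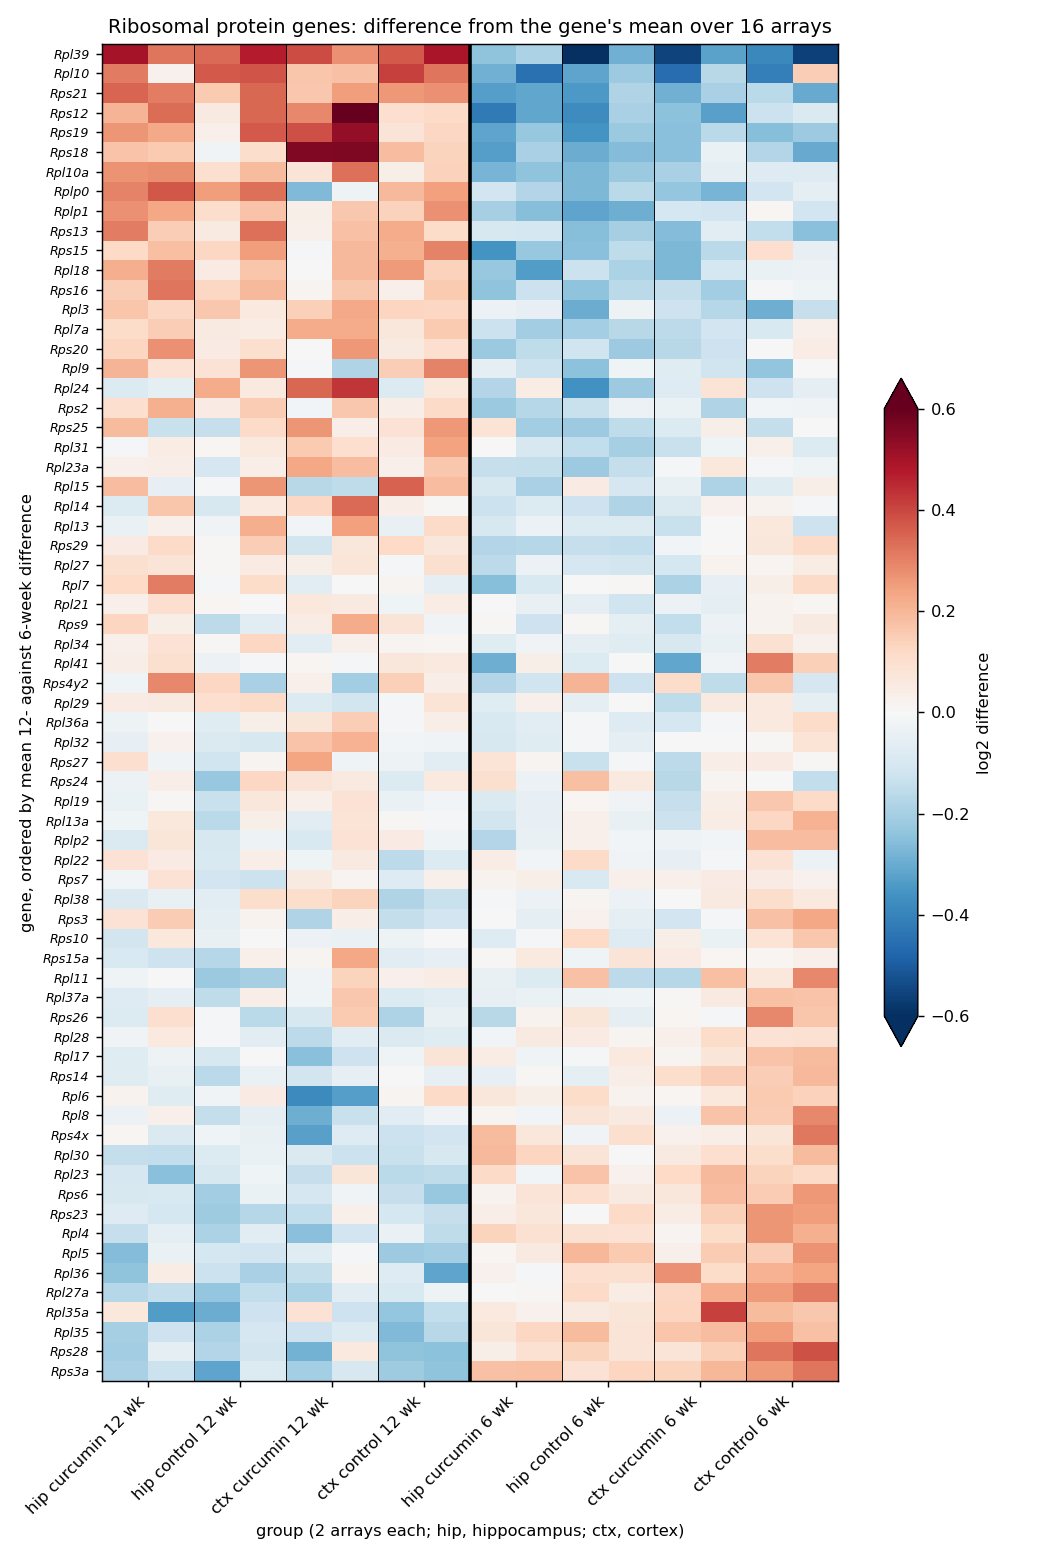
Difference of each of the 68 ribosomal protein genes (rows) from its own mean over the 16 arrays (columns, 2 per group), in log2 units, with colours saturating at 0.6 in either direction. Genes run from the highest to the lowest mean 12- against 6-week difference, and the heavy line separates the 12-week arrays on the left from the 6-week arrays on the right. Red at the upper left and lower right marks members that were brighter at 12 weeks and at 6 weeks.

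Duration of feeding was where the ribosomal protein genes differed most. On control chow in the hippocampus, 11 members were higher (2.77% of all rows were) and 3 were lower (1.5% of all rows) at 12 weeks than at 6 weeks, led by Rpl39, the stalk genes Rplp0 and Rplp1, and Rps21. Tested over all 27342 rows with limma and Benjamini-Hochberg adjustment at an adjusted p below 0.05, 4.27% of rows passed, against 14 of 68 members (20.6%). Among the 2354 equally bright rows the share was 13.1%. The higher members made up 16.2% of the 68, against 8.5% of bright rows, and the lower members 4.41%, against 4.63% of bright rows. The median member difference was 0.019, with 36 of 68 above 0, and the median over all rows was 0.010. It was -0.032 when all arrays were quantile normalized.

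Cortex on control chow gave more calls and the opposite balance. At 12 weeks relative to 6 weeks 7 members were higher (5.42% of all rows were) and 12 were lower (3.44% of all rows), with 8.85% of all rows and 26.6% of bright rows passing, against 19 of 68 members (27.9%). By direction, 10.3% of members and 19.2% of bright rows were higher, and 17.6% of members and 7.39% of bright rows were lower. The median member difference was -0.062, with 30 of 68 above 0, and it was 0.015 when all rows of a gene were averaged. The 6-week control arrays of this comparison had the highest member medians of all 16 arrays, 10.01 and 9.98. Between tissues, 8 members passed in both, 57.1% of those called in hippocampus and 42.1% of those called in cortex, and all 8 had the same sign. Over bright rows 228 passed in both (73.8% and 36.4%), 227 of them with the same sign, and over all rows 731 did (62.6% and 30.2%), 729 of them with the same sign, so the overlap of the members was near that background. The 8 members were Rpl39, Rps21, Rplp0, Rplp1, Rps13, Rpl35, Rpl27a and Rps3a.

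The counts were unstable when single arrays were left out, which leaves 1 array in a group and weakens the test. Differences of single genes kept their sign. In hippocampus on control chow they stayed between 0.69 and 1.01 for Rpl39 and between -0.42 and -0.19 for Rps3a. In hippocampus the 14 calls became 0 without 6-week control array 1, 3 without array 2, 8 without 12-week control array 1 and 0 without array 2, and 9 without either 6-week curcumin array. In cortex the 19 calls became 5 without 6-week control array 2, 5 without 12-week control array 1 and 7 without array 2. With only the 8 arrays of the tissue in the model, 7 members passed in hippocampus and 5 in cortex, and with only the arrays of the comparison 0 passed in either. Rpl39 passed in both tissues with the 8 arrays of that tissue (limma, adjusted p = 0.019 in hippocampus and 0.030 in cortex).

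Rpl39 had the largest difference. On control chow in the hippocampus it read 8.52 and 8.66 at 12 weeks, against 7.58 and 7.90 at 6 weeks, and the log2 difference was 0.85 (SE 0.12, limma adjusted p = 0.0069). In cortex it read 8.55 and 8.68 at 12 weeks, against 7.80 and 7.63 at 6 weeks, a difference of 0.90 (SE 0.12, adjusted p = 0.0026). All 8 arrays of 12 weeks lay above all 8 of 6 weeks, and the other 6 rows of the gene differed by between 0.74 and 0.81 in the mean of the 4 comparisons.

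The stalk did not move as a unit. Rplp0, the base of the stalk, read 9.44 and 9.52 in the hippocampus at 12 weeks on control chow, against 8.92 and 9.03 at 6 weeks, a difference of 0.51 (SE 0.08, limma adjusted p = 0.0079). In cortex it read 9.39 and 9.44, against 9.08 and 9.13, a difference of 0.31 (adjusted p = 0.034). Rplp1, one of the paired acidic proteins at the tip, read 11.06 and 11.13 in hippocampus, against 10.64 and 10.67, a difference of 0.44 (SE 0.07, adjusted p = 0.0080), and 11.10 and 11.23 in cortex, against 10.97 and 10.85, a difference of 0.26 (adjusted p = 0.041). Its partner Rplp2 did not pass in either tissue. It read 10.17 and 10.23 at 12 weeks in hippocampus, against 10.30 and 10.25 at 6 weeks, a difference of -0.07 (SE 0.08, adjusted p = 0.74), and -0.17 in cortex (adjusted p = 0.21).

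Among the small-subunit proteins Rps21 was the most regular, at 9.36 and 9.55 in hippocampus at 12 weeks on control chow, against 8.86 and 9.02 at 6 weeks (0.52, SE 0.08, limma adjusted p = 0.0083). In cortex it read 9.46 and 9.48, against 9.04 and 8.90 (0.50, adjusted p = 0.0059). Rps19, which is mutated in Diamond-Blackfan anaemia in humans, read 8.04 and 8.38 in hippocampus at 12 weeks, against 7.65 and 7.78 at 6 weeks (0.49, SE 0.10, adjusted p = 0.024). In cortex the difference of Rps19 was 0.34 and did not pass (limma adjusted p = 0.060). Neither group of Rps21 or Rps19 overlapped the other in any of these pairs.

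Rps18, a protein of the small-subunit head that touches the large subunit, passed in cortex with 8.73 and 8.68 at 12 weeks on control chow, against 8.37 and 8.24 at 6 weeks (0.40, SE 0.08, limma adjusted p = 0.014). Rps12, of the beak of the small subunit, had a difference of 0.49 in hippocampus that lay at the threshold without passing (SE 0.12, adjusted p = 0.051). Of the proteins near the peptidyl transferase centre, Rpl3 passed in cortex (0.34, adjusted p = 0.031) and Rpl10 passed in hippocampus (0.64, SE 0.16, adjusted p = 0.049). The stalk protein of the opposite side of the large subunit, Rpl10a, passed in hippocampus (0.39, adjusted p = 0.025), together with Rps16, Rps15, Rpl24 and Rps13.

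The members that were lower at 12 weeks were led by Rps3a, of the platform near the mRNA exit. In cortex on control chow it read 10.67 and 10.64 at 12 weeks, against 11.14 and 11.20 at 6 weeks, and the difference was -0.52 (SE 0.08, limma adjusted p = 0.0042). In hippocampus it read 10.56 and 10.80 at 12 weeks, against 10.97 and 11.01 at 6 weeks, a difference of -0.31 (adjusted p = 0.049). Rpl35, near the exit of the tunnel, read 9.39 and 9.49 in cortex at 12 weeks, against 9.91 and 9.84 at 6 weeks, a difference of -0.43 (SE 0.06, adjusted p = 0.0044), and -0.28 in hippocampus (adjusted p = 0.035). No 12-week array of Rps3a or Rpl35 reached any 6-week array of the same tissue. Rps28, another protein of the mRNA exit, had the lowest log2 difference of all members in cortex, 9.96 and 9.95 at 12 weeks, against 10.52 and 10.58 at 6 weeks (-0.60, SE 0.10, adjusted p = 0.0054), but -0.25 in hippocampus, which did not pass (adjusted p = 0.19).

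Other members that were lower in cortex were Rps23, of the decoding centre (-0.38, limma adjusted p = 0.0086), Rpl4, which lines the tunnel (-0.34, adjusted p = 0.016), Rps3 at the mRNA entry (-0.33, adjusted p = 0.023), Rpl36, Rpl30 and Rpl38. Rps6, the substrate of the S6 kinases downstream of mTOR, read 10.47 and 10.39 in cortex at 12 weeks on control chow, against 10.76 and 10.87 at 6 weeks (-0.39, SE 0.07, adjusted p = 0.011). In hippocampus it read 10.40 and 10.57, against 10.71 and 10.66, a difference of -0.20 that did not pass (adjusted p = 0.17). Rpl5 and Rpl11 carry the smallest ribosomal RNA of the large subunit together and also bind Mdm2. Rpl5 read 10.67 and 10.68 in cortex at 12 weeks, against 11.03 and 11.15 at 6 weeks (-0.42, adjusted p = 0.0091), while Rpl11 had a difference of -0.14 that did not pass (adjusted p = 0.59).

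**Figure D2:**
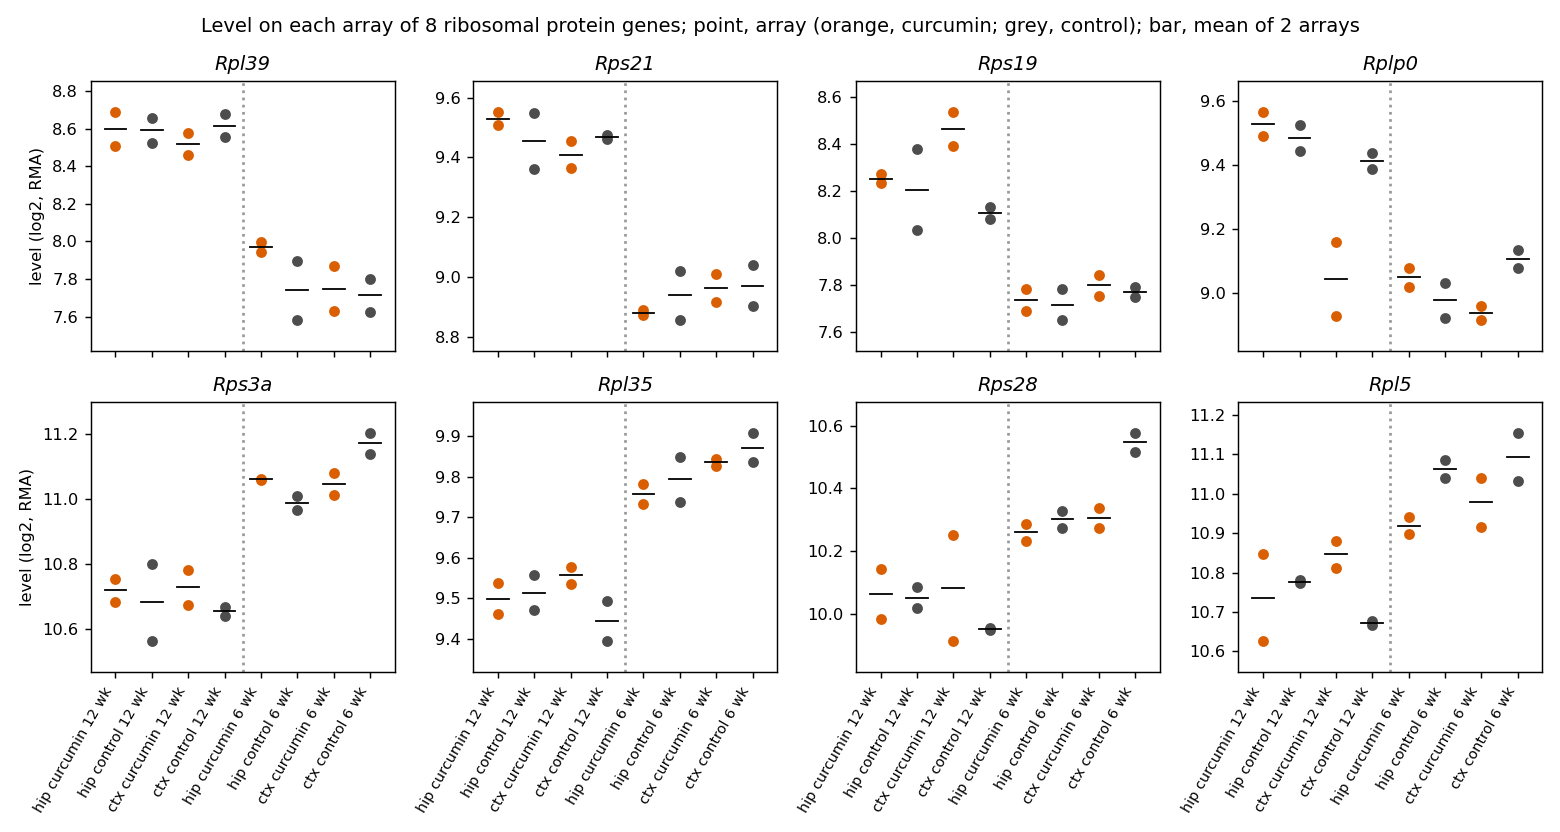
Level of 8 ribosomal protein genes on each of the 16 arrays, in log2 units, with orange points for curcumin, grey points for control and a bar at the mean of the 2 arrays of a group. The 4 groups left of the dotted line are 12-week groups and the 4 on the right are 6-week groups, and the vertical axes are scaled gene by gene and do not start at 0. Rpl39, Rps21 and Rps19 are higher on all 12-week arrays, Rps3a, Rpl35 and Rpl5 are lower on all of them, and Rplp0 is high at 12 weeks except in cortex on curcumin.

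The same comparison on curcumin chow was chosen after seeing these results. In hippocampus 15 members were higher (1.4% of all rows were) and 2 lower (0.87% of all rows) at 12 weeks, with 2.27% of all rows and 8.11% of bright rows passing, against 25% of members. Rps21 (0.65, SE 0.08, limma adjusted p = 0.0046), Rplp1 (0.48, adjusted p = 0.0081) and Rpl10a (0.54, adjusted p = 0.011) led the higher ones, and Rpl30 (-0.30) and Rps3a (-0.34) were lower. In cortex 6 members were higher (1.7% of all rows were) and 4 lower (1.55% of all rows), with 3.24% of all rows and 12% of bright rows passing, against 14.7% of members. Rps18 (0.70, SE 0.08, adjusted p = 0.0027), Rps19 (0.66, adjusted p = 0.0080) and Rpl39 (0.77, adjusted p = 0.0086) led, and Rpl6 (-0.39, adjusted p = 0.0087) was lowest by test. The hippocampus count became 0 and 1 without 6-week curcumin array 1 or 2, and 3 and 1 without 12-week array 1 or 2, and the cortex count became 5 and 3 without the 6-week arrays and 4 without 12-week array 2.

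The 4 duration comparisons shared no array, although hippocampus and cortex were taken from the same rats. Rpl39, Rps21 and Rps3a passed in all 4, and Rplp0, Rplp1, Rps18, Rps19, Rpl35 and Rpl27a passed in 3. Positive in all 4 were 23 members, 33.8%, against 23.4% of bright rows and 17.1% of all rows, and negative in all 4 were 18, 26.5%, against 22.3% of bright rows and 15.1% of all rows. Over the 68 members, the log2 differences of any pair of these comparisons correlated at 0.80 to 0.91, over bright rows at 0.36 to 0.80 and over all rows at 0.27 to 0.64. These are descriptions across genes, which are not independent replicates, and all arrays share 1 normalization.

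**Figure D3:**
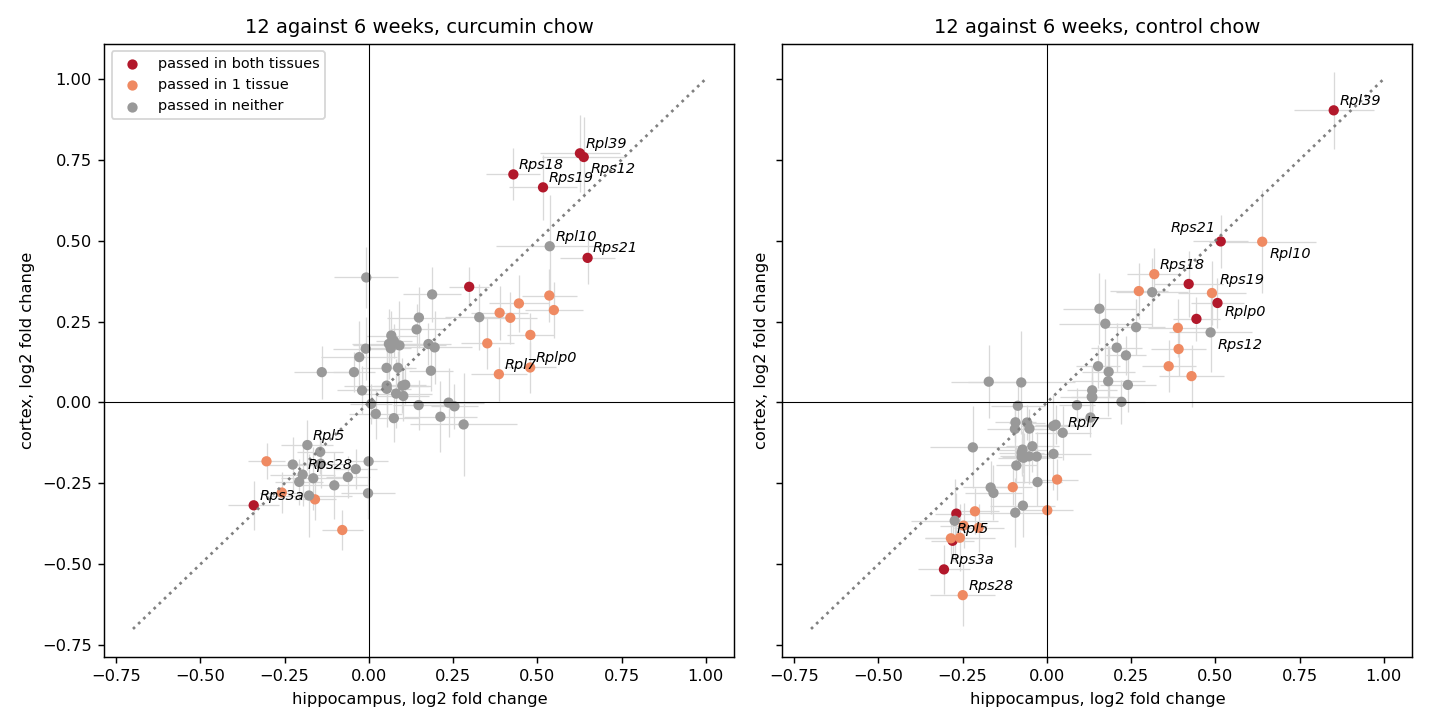
Log2 difference between 12 and 6 weeks in hippocampus (horizontal) and in cortex (vertical) for the 68 ribosomal protein genes, on curcumin chow (left) and on control chow (right). Points are genes, bars are standard errors, the dotted line marks equal differences, and colour gives whether the gene passed in both tissues, in 1 or in neither. The cloud runs along the diagonal on both diets, with Rpl39 at 0.85 and 0.90 on control chow.

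In the mean of the 4 comparisons, which was also chosen after seeing the results, 23 members were higher (10.9% of all rows were) and 18 lower (8.97% of all rows) at 12 weeks, with 19.9% of all rows and 47.7% of bright rows passing, against 60.3% of members. Arrays separated completely for 12 members with all 8 of 12 weeks above all 8 of 6 weeks, against 2.44% of rows, and for 7 members with all 8 below, against 1.11% of rows. Bright rows separated in 8.2% and 4.08%. Above were Rpl39, Rps21, Rps12, Rps13, Rps16, Rps18, Rps19, Rpl3, Rpl7a, Rpl10a, Rpl18 and Rplp1, and below were Rps3a, Rps6, Rpl4, Rpl5, Rpl27a, Rpl30 and Rpl35. The higher members were dimmer rows, with a median level of 9.19, against 10.17 for the lower members and 10.05 for the rest. Level and difference correlated at -0.31 over the 68 members and at 0.037 over all rows, a description whose part in the result was not tested.

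Rows of the same gene usually moved alike. In the mean of the 4 comparisons, 32 members with several rows were called, and in 29 of them every other row had the same sign. The exceptions were Rpl4, whose other row at 5.86 had a difference of 0.12, Rpl5, whose other rows lay at 0.025 and 0.12 against -0.25 in the chosen row, and Rpl6. For Rps3 the calls rested on the choice of row, since its dim second row at 6.03 differed by 0.40 in cortex on control chow, against -0.33 in the chosen row, and the average of its rows by 0.034. Rows that lie on processed copies elsewhere in the genome cannot be told from rows of the parent gene here.

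**Figure D4:**
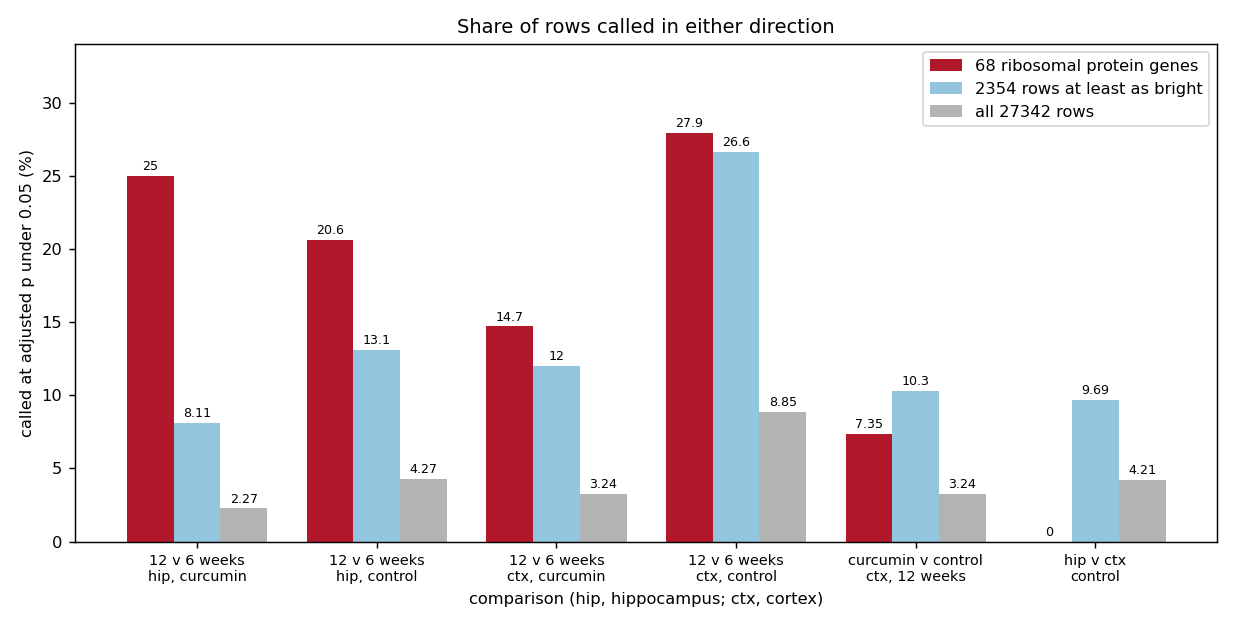
Share of the 68 ribosomal protein genes, of the 2354 rows at least as bright as their lower quartile and of all 27342 rows that passed at an adjusted p below 0.05 in either direction, in percent, for 6 comparisons. The members are above both backgrounds in hippocampus over time, close to the bright rows in cortex over time on either chow, below the bright rows for curcumin in cortex at 12 weeks, and at 0 between the tissues.

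Few ribosomal protein genes differed between curcumin and control chow. In hippocampus after 12 weeks 0 members passed, and 0.00366% of rows did. At an unadjusted limma p below 0.05 were 3 of 68 members, beside 1396 of 27342 rows. The members with the largest statistics were Rps7 (0.16, SE 0.06), Rps9 (0.19, SE 0.08) and Rpl7 (0.16, SE 0.08) above and Rpl24 (-0.21, SE 0.10), Rpl30 (-0.084) and Rpl23 (-0.12) below, each with an adjusted p above 0.92. In hippocampus after 6 weeks 0 members passed and 0% of rows did, with 1 member and 555 rows at an unadjusted p below 0.05. Rpl24 (0.23, SE 0.10), Rpl30 (0.12) and Rpl39 (0.23, SE 0.12) led above and Rpl7 (-0.18), Rpl5 (-0.14) and Rplp2 (-0.12) below, none of which passed.

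The median member difference was 0.045 in hippocampus after 12 weeks, with 48 of 68 above 0, and -0.013 after 6 weeks, with 28 of 68 above 0. After 12 weeks it was -0.017 without control array 1. Both 12-week curcumin arrays lay above both control arrays for 18 members, against 12.7% of rows, and below for 5, against 14.7% of rows. After 6 weeks they lay above for 9, against 17.3% of rows, and below for 13, against 17.7%. The test of the difference between the diet effects at 12 and at 6 weeks gave 0 calls among members and 0% among rows. An unadjusted limma p below 0.05 was found for 4 of 68 members, beside 939 of 27342 rows.

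Cortex after 12 weeks was the comparison with calls on curcumin. Rps18, Rpl38 and Rpl24 were higher (1.64% of all rows were) and Rpl6 and Rplp0 lower (1.59% of all rows) on curcumin chow than on control chow, 5 of 68 members (7.35%), against 3.24% of all rows and 10.3% of bright rows. Rps18 read 9.10 and 9.11 on curcumin, against 8.73 and 8.68 on control (0.40, SE 0.08, limma adjusted p = 0.024). Rpl38, needed in mouse embryos for translation of Hox mRNAs, read 10.22 and 10.25, against 9.94 and 9.98 (0.28, SE 0.06, adjusted p = 0.038). Rpl24, which bridges the subunits, read 7.498 and 7.58, against 7.07 and 7.21 (0.40, SE 0.10, adjusted p = 0.048).

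Below control were Rpl6, with 9.39 and 9.44 on curcumin, against 9.79 and 9.88 on control (-0.42, SE 0.06, limma adjusted p = 0.0067), and Rplp0, with 8.93 and 9.16, against 9.39 and 9.44 (-0.37, SE 0.08, adjusted p = 0.030). Rpl15 had a difference of -0.43 that did not pass (SE 0.11, adjusted p = 0.060). The other stalk genes did not pass, with -0.11 for Rplp1 and -0.015 for Rplp2. Rps6 differed by 0.12, Rpl5 by 0.17, Rpl11 by 0.019 and Rpl41, the smallest ribosomal protein, by -0.060, and none of these passed either.

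The 5 calls in cortex after 12 weeks became 0 without either control array, 1 and 2 without curcumin array 1 or 2, and 3 without either 6-week control or either 12-week curcumin array of hippocampus. They became 0 with only the 8 arrays of the tissue or only the 4 arrays of the comparison in the model. The median over members was 0.035, with 38 of 68 above 0, and -0.025 without curcumin array 2. Both curcumin arrays lay above both control arrays for 23 members, against 22.3% of rows, and below for 15, against 22% of rows. In the same comparison the astrocyte markers had a median difference of -0.22 with 0 of 8 above 0 and 1 passing, Mlc1 (-0.44, limma adjusted p = 0.013), and their mean was 9.55 and 9.80 on curcumin, against 9.83 and 9.96 on control. The oligodendrocyte markers had a median of -0.13 with 0 of 13 above 0, and the part of these cell types in the members' differences was not tested.

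In cortex after 6 weeks 0 members passed, with 0.106% of all rows (0.0987% higher, 0.00731% lower) and 0.51% of bright rows passing, yet most members were below control. The median difference was -0.089, between -0.12 and -0.058 when any single array was left out, and 14 of 68 were above 0, while the median over all rows was 0.0016. For 34 members (50%) both curcumin arrays lay below both control arrays, against 17.4% of rows, and for 0 members above, against 18.9% of rows. At an unadjusted limma p below 0.05 there were 11 of 68 members, beside 3293 of 27342 rows. Rps3 (-0.27, SE 0.08) and Rpl41 (-0.39, SE 0.11) had the smallest adjusted p, 0.19 for both. Rpl41 read 9.77 and 10.06 on curcumin, against 10.39 and 10.23 on control.

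The mean over the 68 members was 9.45 and 9.53 on the 6-week curcumin cortex arrays, against 9.57 and 9.58 on the control arrays. The 6-week hippocampus arrays lay between 9.45 and 9.47, and the 12-week arrays between 9.49 and 9.62. By the median over the members, the 6-week control cortex arrays were the highest of the 16, at 10.01 and 9.98. These control arrays also entered the cortex duration comparison on control chow and the tissue comparison. Between curcumin and control in cortex after 6 weeks, the oligodendrocyte markers had a median difference of -0.80 with 0 of 13 above 0. Their mean was 7.91 and 8.78 on curcumin, against 9.32 and 8.85 on control. The microglia markers had a median of -0.34 with 0 of 13 above 0, at 7.10 and 7.09, against 7.34 and 7.59, and the red cell markers a median of -0.93 with 0 of 4 above 0, at 6.52 and 6.33, against 6.84 and 7.92. The astrocyte markers had a median of -0.14 with 1 of 8 above 0, at 9.70 and 9.75, against 9.99 and 9.91. Neuron markers had a median of 0.22 with 10 of 12 above 0. The part of these cell types in the members' differences was not tested.

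**Figure D5:**
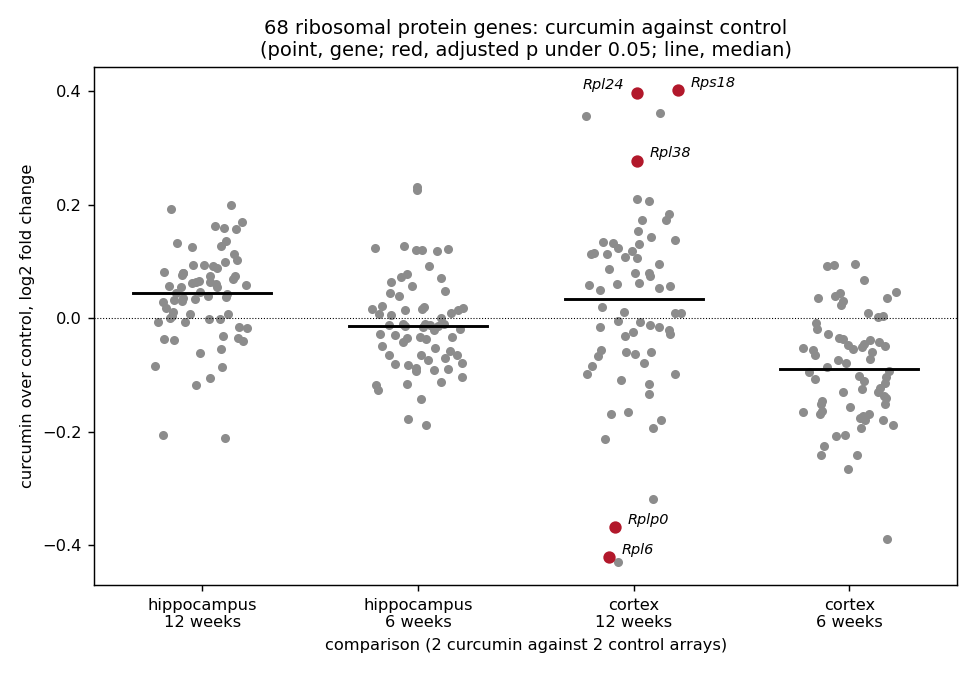
Log2 fold change, curcumin over control, of the 68 ribosomal protein genes in hippocampus and cortex after 12 and 6 weeks. Points are genes with random horizontal spread, red points passed at an adjusted p below 0.05 and are named, and lines are medians. The medians are 0.045 and -0.013 in hippocampus at 12 and 6 weeks and 0.035 and -0.089 in cortex at 12 and 6 weeks.

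Whether the diet effect differed between durations or tissues was tested directly. In cortex, 12 against 6 weeks, 0 members passed and 1.47% of rows did (0.446% higher, 1.02% lower), the nearest being Rpl38 (0.33, SE 0.09, limma adjusted p = 0.093), Rpl6 (-0.31, adjusted p = 0.10) and Rps12 (0.54, adjusted p = 0.15). Between hippocampus and cortex 0 members passed at 12 weeks, where 0.19% of rows did (0.0731% higher, 0.117% lower), with Rpl24 (-0.61, SE 0.13, adjusted p = 0.10) and Rpl6 (0.38, adjusted p = 0.11) closest. At 6 weeks 0 members and 0% of rows passed, with 2 of 68 members and 1498 of 27342 rows at an unadjusted p below 0.05. In the cortex interaction 17 members and 4020 rows were below it, and between tissues at 12 weeks 9 members and 2891 rows. Averaged over all 4 diet comparisons 0 members passed, with 0.0146% of rows (0.011% higher, 0.00366% lower). In this average 9 members and 2478 rows had an unadjusted p below 0.05, and Rpl6 had the smallest adjusted p (-0.14, limma adjusted p = 0.15).

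Ribosomal protein levels differed little between hippocampus and cortex, with most members slightly lower in hippocampus on control chow in the mean of both durations. On control chow 0 members passed, against 4.21% of all rows (3.08% higher, 1.13% lower) and 9.69% of bright rows. An unadjusted limma p below 0.05 was found for 13 of 68 members, beside 4169 of 27342 rows. The median difference, hippocampus over cortex, was -0.065 with 10 of 68 above 0, and all members lay between -0.21 and 0.078. Over all rows the median was -0.00046, with 49.8% above 0. Rpl27a (-0.17, SE 0.04, adjusted p = 0.069), Rplp1 (-0.16, adjusted p = 0.11) and Rpl23a (-0.14, adjusted p = 0.14) were the nearest below, and Rpl22 (0.058), Rpl38 (0.042) and Rps24 (0.078) above, none past the threshold. Rpl41 alone had all 4 hippocampus control arrays, between 10.002 and 10.09, below all 4 cortex control arrays, between 10.15 and 10.39, against 2.43% of rows. The member mean on control chow was 9.46 and 9.47 in hippocampus, against 9.57 and 9.58 in cortex, at 6 weeks. At 12 weeks it was 9.49 and 9.59, against 9.54 and 9.56, and the member median 9.85 and 9.84, against 9.87 and 9.91. On curcumin chow the mean was 9.45 and 9.46, against 9.45 and 9.53, at 6 weeks. At 12 weeks on curcumin chow it was 9.56 and 9.59, against 9.53 and 9.62.

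Genes that serve ribosomes without the Rpl or Rps name were read from lists drawn up for this purpose. Fau, which encodes a small-subunit protein fused to a ubiquitin-like domain, was higher in hippocampus at 12 weeks on control chow (0.33, SE 0.07, limma adjusted p = 0.027) but did not pass in cortex (0.17). Rpsa, a small-subunit protein also known as the laminin receptor, had 0.15 and -0.13, and the scaffold Rack1 had 0.22 and 0.25, in hippocampus and in cortex, none of which passed. Of 33 ribosome biogenesis genes 0 were higher and 2 lower in hippocampus, among them Ubtf (-0.50, adjusted p = 0.014), and 0 were higher and 3 lower in cortex, among them nucleolin, Ncl (-0.48, adjusted p = 0.0076), and Nmd3, the export adaptor of the large subunit (-0.36, adjusted p = 0.015). Their medians were -0.027 in hippocampus and -0.033 in cortex, and the shares called, 6.06% and 9.09%, stood beside 4.27% and 8.85% of all rows.

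Of 29 translation initiation genes 3 were higher and 0 lower in hippocampus and 1 higher and 2 lower in cortex, with Eif3i at 0.49 (limma adjusted p = 0.025) in hippocampus and Eif4a1 at -0.26 (adjusted p = 0.018) in cortex. Of 13 elongation and termination genes 1 was higher in hippocampus, and 2 were higher and 2 lower in cortex, among them Eef1d (-0.42, adjusted p = 0.0081) and Tpt1 (-0.33, adjusted p = 0.026), whose mRNA also carries a pyrimidine tract. Of 11 mTOR pathway genes Rptor, the scaffold of mTOR complex 1, was lower in both tissues (-0.44, adjusted p = 0.019, and -0.45, adjusted p = 0.010), and no other passed. In hippocampus 2.77% of all rows and 8.5% of bright rows were higher, and 1.5% and 4.63% were lower. In cortex 5.42% and 19.2% were higher, and 3.44% and 7.39% were lower.

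Of 77 respiratory chain genes 18 were higher and 1 lower in hippocampus and 23 higher and 2 lower in cortex, with a median of 0.21 in both, and Ndufb6 of complex I led with 0.85 (SE 0.13, limma adjusted p = 0.0079) and 1.14 (adjusted p = 0.0012). Of 67 mitochondrial ribosomal proteins 3 were higher and 1 lower in hippocampus and 8 higher and 3 lower in cortex, with medians of 0.097 and 0.099. Of 36 proteasome genes by name 3 were higher and 3 lower, and 3 higher and 4 lower, with Psmb5 at 0.68 and 0.70. The lower ones included Psmc3ip, which acts in recombination rather than in the proteasome. Beside these 3 lists, 2.77% of all rows and 8.5% of bright rows were higher in hippocampus, and 1.5% and 4.63% lower. In cortex 5.42% and 19.2% were higher, and 3.44% and 7.39% lower. Marker lists also differed between the durations on control chow. The choroid plexus median was -1.49 in hippocampus (0 of 7 above 0), and no gene of that list passed (smallest limma adjusted p = 0.14). Its mean was uneven at 6 weeks, 7.02 and 9.001, against 6.25 and 6.39 at 12 weeks. The oligodendrocyte median was -0.57 in cortex (0 of 13 above 0). The part of these lists in the members' differences was not tested.

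On curcumin in cortex after 12 weeks, the gene lists around the ribosome gave a few calls of their own. Eif2s3, a subunit of the factor that brings the initiator tRNA, read 8.76 and 8.85 on curcumin, against 9.28 and 9.29 on control (-0.48, SE 0.06, limma adjusted p = 0.0046). Pno1, which helps small-subunit precursors mature, read 7.07 and 6.91, against 7.67 and 7.74 (-0.72, SE 0.12, adjusted p = 0.012). Eif6 (-0.25), which keeps the subunits apart, and Etf1 (-0.42), a release factor, were also lower, and Eif4g3 (0.41) and the translation repressor Eif4ebp2 (0.48) were higher. Of 29 initiation genes 1 was higher and 2 were lower (10.3%, with a list median of -0.10), and of 33 biogenesis genes 0 were higher and 1 was lower (3.03%, with a list median of 0.017). In this comparison 10.3% of bright rows and 3.24% of all rows passed.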

How the data were processed

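Total RNA of pooled tissue was converted to labelled cDNA, which was hybridized to Affymetrix arrays. The authors scanned them with Command Console and made the deposited values, log2 intensities summarized by RMA, with Expression Console, and used Gene Spring. Versions were not given in the sources used here. The methods name an exon array while the rows carry a gene array annotation, which is not settled.

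Rows were named through the platform annotation given with the data (15097 rows with 1 symbol, 323 with several, 11922 with none), and 66 of 68 members kept the same RefSeq symbol. Group means were fitted with limma 3.58.1 in R 4.3.3 over all 16 arrays and 27342 rows, with empirical Bayes moderation and Benjamini-Hochberg adjustment. The model left 8 residual degrees of freedom. Figures used matplotlib 3.10.9. The fit was tested on simulated data.

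Members and lists were chosen with earlier results of these data known. Genes named in the text are members that passed (up to 10 per direction and comparison), or the 3 with the largest statistic where fewer than 3 passed in a direction, the 5 brightest, dimmest, widest and narrowest, the stalk genes, Rps6, Rpl5, Rpl11, Rpl41 and Rps4x with Rps4y2, and up to 3 genes per direction of each list that passed. Others named in the report, such as Rack1, Rpsa and list members beyond this rule, were chosen after their values were seen. Several ribosomal protein genes, such as Rps27a, have no row of 1 symbol here and are not analysed here. The number of arrays limits the precision. Alternatives covered the filter on dim rows, normalization, each array left out, the arrays in the model, variance settings, blocks, row choice and the threshold.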

Additional observations from a re-analysis of the deposited data

Results flagged for a closer look

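No ribosomal protein gene had a diet effect that differed between durations or tissues past the threshold. Among the genes of the other lists named in the report, 3 did. In cortex the curcumin effect at 12 weeks minus that at 6 weeks was -1.13 for Pno1 (SE 0.17, limma adjusted p = 0.020), -0.52 for Eif2s3 (SE 0.09, adjusted p = 0.023) and 0.58 for Uqcrfs1, the Rieske protein of complex III (SE 0.11, adjusted p = 0.036). Pno1 read 7.07 and 6.91 on curcumin, against 7.67 and 7.74 on control, at 12 weeks, and 8.003 and 7.99 on curcumin, against 7.74 and 7.42 on control, at 6 weeks. The curcumin effect on Uqcrfs1 at 12 weeks was also lower in hippocampus than in cortex, by -0.67 (SE 0.11, adjusted p = 0.049). Groups of 2 arrays are too small for a test of single outlying arrays.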

How the results depend on the processing

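With 2 arrays a group, calls rested on the shared spread. With only the arrays of the comparison in the model, the members called were 0 in each of the 13 comparisons so fitted (the means over all groups were not), and with only the 8 arrays of a tissue they were 0 for curcumin in cortex at 12 weeks, 7 and 5 for duration on control chow in hippocampus and cortex, and 6 and 2 on curcumin chow. Without 1 array the counts ranged from 0 to 7 for curcumin in cortex at 12 weeks, 0 to 14 and 5 to 21 for duration on control chow in hippocampus and cortex, 0 to 16 and 3 to 10 on curcumin chow, 38 to 43 for the mean over all groups, and 0 to 1 for the diet effect in cortex at 12 against 6 weeks. In the other comparisons they stayed at 0.

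Median differences without 1 array ran from -0.017 to 0.086 and -0.025 to -0.0095 for curcumin in hippocampus at 12 and 6 weeks, -0.025 to 0.067 and -0.12 to -0.058 in cortex, -0.080 to -0.047 between tissues, -0.022 to 0.075 and -0.062 to -0.048 for duration on control chow in hippocampus and cortex, 0.050 to 0.096 and 0.032 to 0.12 on curcumin chow, 0.030 to 0.055 for the mean over all groups, and -0.025 to 0.0097 for the mean diet effect. Diet effects compared between durations gave -0.0075 to 0.095 in hippocampus and 0.085 to 0.18 in cortex, and compared between tissues -0.013 to 0.069 at 12 weeks and 0.045 to 0.13 at 6 weeks.

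Quantile normalization over all arrays or within tissues gave 29 calls for duration in cortex on control chow, medians of -0.122 and -0.125, and medians of -0.032 and -0.033 in hippocampus, a median of 0.22 and 1 call for the diet effect in cortex at 12 against 6 weeks, and, over all arrays, 2 calls between tissues. Centring arrays on their medians gave 3 calls for curcumin in cortex at 12 weeks, and 8 and 9 for duration in hippocampus on control and curcumin chow. The mean of all rows of a gene gave 2 calls for curcumin in cortex at 12 weeks and a median of 0.015 for duration in cortex on control chow, and turned Rps3 there to 0.034. At an adjusted p below 0.10 there were 8, 1, 1 and 18 calls for curcumin in cortex at 12 weeks, tissue, the diet effect in cortex at 12 against 6 weeks, and duration in cortex on curcumin chow. A 1.5-fold rule with no test called 0 members for curcumin in cortex at 12 weeks (0.827% of all rows), 2 and 1 for duration in hippocampus and cortex on control chow (1.33% and 3.08% of all rows), and 3 and 4 on curcumin chow (0.724% and 1.01%).

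Of single genes, Rps18 and Rpl3 for curcumin in cortex at 6 weeks and Rps24 between tissues turned sign when 1 array was left out, with ranges of -0.011 to 0.20, -0.0088 to 0.14 and -0.010 to 0.17, and none of them had passed. Whether replicate numbers pair the samples was not settled. Same-numbered arrays' deviations correlated at -0.43 to 0.49 over all pairs of groups. Between hippocampus and cortex of the same diet and duration they correlated at -0.15, 0.12, 0.15 and 0.16. With the replicate block the counts were 6 for curcumin in cortex at 12 weeks and 42 for the mean over all groups. For duration they were 13 and 19 on control chow and 17 and 11 on curcumin chow. Leaving out names that end in l removed 0 members, since the numbered -like names were already outside the set.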
